A study of Mus with 7 samples.

Results

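Macrophages with high and low levels of mitotic mRNAs were compared within a single library, Veh.LPS.1, 1 h after LPS. The members were 1537 cells, selected on a mitotic score out of the 3073 cells of that library that passed the study's limits, which in turn belong to 11640 such cells in 7 libraries. The score was the sum of the UMIs (unique molecular identifiers, 1 per captured mRNA molecule) of Mki67, Top2a, Cdk1, Ccnb1 and Cenpf divided by all UMIs of the cell. The 3073 cells were ranked by the score and divided into 4 bins of equal size; the 768 cells with the highest scores are called mitotic-high and the 769 cells with the lowest scores mitotic-low. The comparison asks whether cells in division mount the same early cytokine and immediate-early response as the others.

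The cells were FLMs, macrophages grown from the fetal liver of C57BL/6J mice with 30 ng/mL GM-CSF, a growth factor that keeps them self-renewing, and they were used at later passages, when they grow rapidly. Veh.LPS.1 cells were kept for 24 h in 0.25% FBS with 8.3 µM BSA and then received 20 ng/mL LPS, a bacterial cell wall lipid sensed by TLR4, for 1 h. Veh.LPS.0 and Veh.LPS.4 had the same medium with 0 or 4 h of LPS, DHA.LPS.0, DHA.LPS.1 and DHA.LPS.4 also had 25 µM of the omega-3 fatty acid DHA on the BSA, and Con cells stayed in 10% FBS without LPS. Each condition was 1 library of a proliferating culture, so the cells of a bin are not replicates, and every interval given for a single library covers counting error only.

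LPS binding to TLR4 triggers kinase cascades and NF-κB. Immediate-early genes such as Egr1, Fos and Ier2 need no new protein to be transcribed and peak within the first hour, followed by cytokines and chemokines whose genes NF-κB also serves. In mitosis the chromosomes condense and transcription largely pauses, whereas the G2 phase before it remains transcriptionally active. A score of mRNAs that accumulate through S phase and G2 picks cells over all of these stages, not mitotic figures alone.

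The rule itself set the level of its 5 genes, which are given here as a description. Their UMIs had a median of 106 per cell in mitotic-high cells and 2 in mitotic-low cells, or 3032 and 60.2 CPM (counts per 1000000 UMIs). The last cell inside the mitotic-high bin had 2364 CPM and the first outside it 2363 CPM, and at the low limit the values were 135.8 and 135.9 CPM. Scores within 10% of the upper limit were found in 272 cells and of the lower limit in 121 cells, so both limits cut a continuum. In mitotic-low cells 135 cells had no UMI of any of the 5 genes. High cells were also deeper: the median UMI count was 34824 against 26451, and the median number of genes 5569 against 4647. The same order held in the other 6 libraries. The mitochondrial share of UMIs was alike, with medians of 6.78% and 7.10%. Sums of UMIs per bin were therefore scaled to CPM of that bin, and values per cell were taken after thinning every cell to 20000 UMIs, which no cell fell short of. Since the sums are relative, CPM alone cannot tell a lower level from a larger total of other mRNAs in a bigger cell. UMIs per cell without scaling or thinning are not given here.

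Both bins were macrophages by their markers. At least 3 of 9 macrophage markers had a UMI in all 769 low and all 768 high cells. Of 7 lists of markers of other cell types, the hepatocyte list was the highest, at 6.74 CPM in mitotic-low and 6.26 CPM in mitotic-high cells, nearly all of it Afp, and the mast cell and basophil list was at 0. The 2 bins shared 2 barcodes with kept cells of other libraries.

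The cell cycle genes outside the rule placed the bins along the cycle. All 30 other mitosis genes were higher in mitotic-high cells, by a median log2 ratio of 4.29. Nusap1, a spindle microtubule protein, was at 3.85, 11.2, 139.4 and 274.2 CPM from the lowest to the highest bin, and the motor Kif11 at 3.30 CPM in mitotic-low and 220.5 CPM in mitotic-high cells. Of 25 DNA replication genes, 24 were higher in mitotic-high than in mitotic-low cells, with a median log2 ratio of 1.05. More than 1.5-fold higher were 18 of them, where 13.6% of the genes detected in 50% or more of the cells of either bin were. The 1 lower gene was Ung, at -2.34. Summed over the replication list, the level did not peak in the highest bin. In thinned cells the median cell had 10 UMIs of the list in the lowest bin and 25 in the second. It had 49 in the third bin and 26 in the highest. Rrm2, Cdc6 and Ung did not peak in the highest bin either. Rrm2, a subunit of the enzyme that makes deoxynucleotides, reached 184.0 CPM in the third bin and was at 130.9 CPM in the highest and 17.2 CPM in the lowest. Cdc6, which licenses replication origins, was at 30.7 CPM in the third bin against 7.37 CPM in the highest and 6.51 CPM in the lowest. Ung, which removes uracil from DNA, was highest in the second bin, at 33.2 CPM, and lowest in the highest bin, at 2.62 CPM. Nusap1 and Kif11 were thus highest in the highest bin, Rrm2 and Cdc6 in the third and Ung in the second. Replication histone mRNAs, which are made in S phase, were higher in mitotic-high cells for all 10 genes, and the cell cycle inhibitors Cdkn2c and Cdkn2d were higher by log2 ratios of 2.68 and 2.37. Ccnd2, a D-type cyclin of G1, and Btg1, an antiproliferative factor, were lower by 0.81 and 0.73. Hist1h2an and Hist1h2ap are near-identical to other histone genes, so reads may be split between copies. How fully the assay captures histone mRNAs was not tested.

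Across the transcriptome, 5480 genes were detected in 50% or more of mitotic-high or mitotic-low cells. Of these, 13.6% (743 genes) were higher in mitotic-high cells by more than 1.5-fold and 2.88% (158 genes) were lower, with a median log2 ratio of 0.11. These are counts by size, with no test. A gene could enter through 1 bin alone, and high cells were deeper, so the filter bears on these shares. With no limit on detection 3179 genes were higher and 2580 lower, and with cells thinned 482 and 108. List members needed only 10 UMIs in both bins, so the shares are not a like background for them. Of 27 such immediate-early genes, 2 were higher by more than 1.5-fold and 2 were lower, with a median log2 ratio of 0.00. Of 22 such early cytokines and chemokines, 3 were higher and 12 were lower, with a median of -0.86. None of the 12 cytokines at 50 CPM or more was higher by 1.5-fold, so the 3 higher ones were of low abundance.

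**Figure D1:**
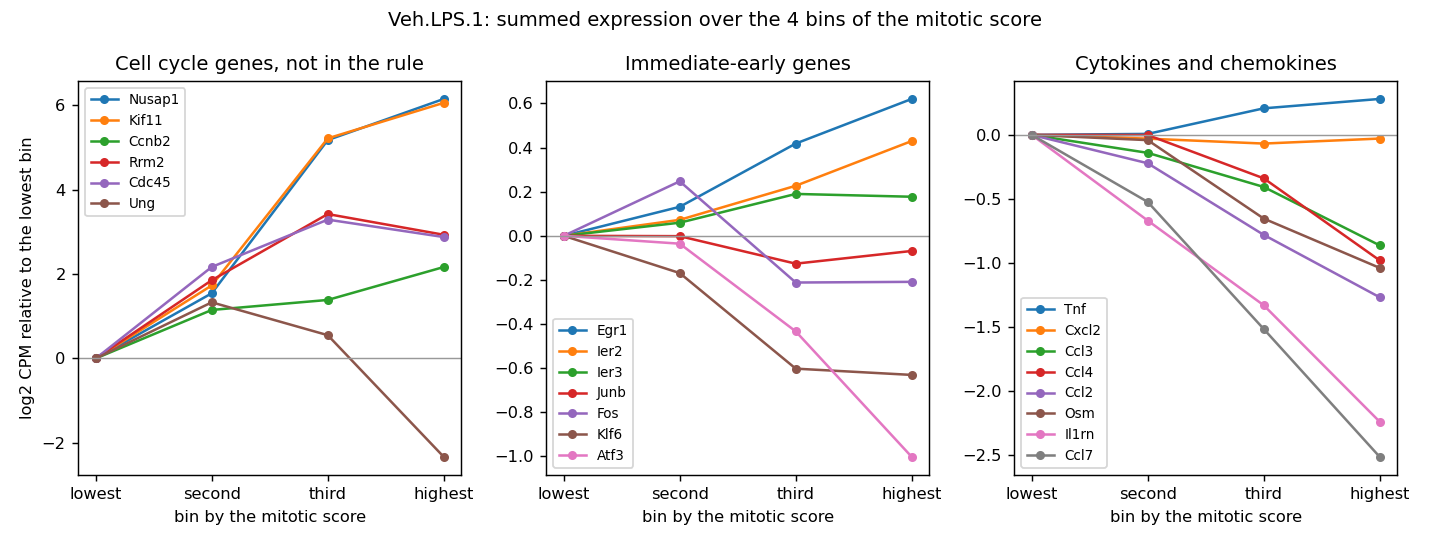
Log2 CPM of named genes in each bin of the mitotic score of Veh.LPS.1, relative to the lowest bin, for cell cycle genes (left), immediate-early genes (middle) and cytokines and chemokines (right), with 1 sum of cells per point and a separate vertical scale in each panel. Tnf, Cxcl2 and most immediate-early genes stay near 0 or above, while Ccl7, Il1rn, Ccl2, Ccl4 and Ccl3 descend across the bins, to -2.52 for Ccl7.

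The abundant immediate-early genes were at like or higher levels in mitotic-high cells. Ier3, which limits cell death after NF-κB activation, was at 3316 CPM in mitotic-low and 3749 CPM in mitotic-high cells, a log2 ratio of 0.18 (95% interval 0.16 to 0.19). Egr1, a zinc-finger factor induced through ERK, was at 512.8, 561.7, 685.2 and 788.3 CPM from the lowest to the highest bin. Its ratio of 0.62 was the largest of the 14 immediate-early genes at 50 CPM or more. Ier2 was at 663.1 CPM in mitotic-low and 893.1 CPM in mitotic-high cells. Of the AP-1 subunits, Junb was at 1479 and 1410 CPM, Jun at 432.9 and 474.6 CPM and Fos at 161.2 and 139.5 CPM. In cells thinned to 20000 UMIs, Fosl1 had a median of 2 UMIs in both bins. Jund had 4 in low and 3 in high cells, and 26.7% of high cells lay above the median low cell. Exceptions, lower by more than 1.5-fold, were Atf3, a factor that represses inflammatory genes, at 184.3 and 92.0 CPM, and Klf6, at 272.6 and 176.1 CPM. Summed over the list of 28 genes, the median cell had 170.0 UMIs in mitotic-low cells and 181.0 in mitotic-high cells at 20000 UMIs per cell.

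Of the 12 named cytokines, Tnf was slightly higher and Cxcl2 nearly equal in mitotic-high cells, while most others were lower. In thinned cells, Tnfsf9 had a median of 6 UMIs in mitotic-low and 5 in mitotic-high cells, and Tgfb1 3 in both. Tnf, the first cytokine of the response, was at 3444, 3462, 3977 and 4184 CPM from the lowest to the highest bin, a log2 ratio of 0.28 (0.27 to 0.29). Cxcl2, a neutrophil chemokine, was the most abundant and nearly flat, at 7714, 7558, 7359 and 7562 CPM. The 5 CC chemokines named, which attract monocytes and lymphocytes, were all lower in mitotic-high cells. Ccl4 was at 6262, 6257, 4948 and 3171 CPM, Ccl3 at 4343, 3940, 3275 and 2386 CPM, and Ccl2 at 3843, 3295, 2235 and 1594 CPM. The steps were small or absent between the lowest bin and the second, and larger over the upper bins. Ccl7 differed by more, with 260.6 CPM in the lowest and 45.5 CPM in the highest bin, and Ccl9 was at 1367 and 759.6 CPM. A further 3 secreted proteins were lower as well. Csf3, the granulocyte growth factor, was at 145.7 and 29.9 CPM, Il1rn, the antagonist of the IL-1 receptor, at 241.2 and 51.0 CPM, and Osm, an IL-6 family cytokine, at 142.6 and 69.3 CPM.

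The genes concerned lie close together on the chromosome in part. In RefSeq on GRCm38 (mm10), Ccl2 spans chr11:82035577-82037452 and Ccl7 chr11:82045712-82047525. Ccl9 (chr11:83572917-83578636), Ccl3 (chr11:83647843-83649378) and Ccl4 (chr11:83648624-83664683) lie in a second group on that chromosome. The spans of Ccl3 and Ccl4 overlap, and how reads in the shared stretch were assigned is not stated by the study. Csf3 (chr11:98700183-98703631) is farther along, and Osm (chr11:4236785-4241026) lies far from both groups. Il1rn (chr2:24336860-24351491), also lower in mitotic-high cells, is on another chromosome. So are Tnf (chr17:35199367-35202007) and Cxcl2 (chr5:90903899-90905938). Whether position goes with the level was not tested.

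At equal depth the difference was one of cells as well as of sums. Thinned to 20000 UMIs, the median cell had 60.0 Ccl2 UMIs in mitotic-low cells (interquartile range 30.0 to 102.0) and 23 in mitotic-high cells (11 to 41), and 13.1% of high cells lay above the median low cell. For Ccl4, 11.6% of high cells and for Ccl3 16.8% lay above the median low cell. For Tnf 66.8% and for Egr1 79.0% did so, and for Cxcl2 44.5%. Nearly every cell of both bins held Tnf, Cxcl2 and Ccl2: a Tnf UMI was found in 100% of both (exact binomial interval 99.5% to 100%). Ccl7 was found in 43.4% of low cells (39.9% to 47.0%) and 24.7% of high cells (21.7% to 28.0%), and Csf3 in 50.5% (46.9% to 54.1%) and 22.1% (19.3% to 25.2%). Without thinning the shares were 48.0% and 34.2% for Ccl7 and 55.8% and 29.7% for Csf3, at the median depths given above. All cells were macrophages, so no cell type without these genes was at hand to set a background, and the part of free RNA in these shares was not tested.

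**Figure D2:**
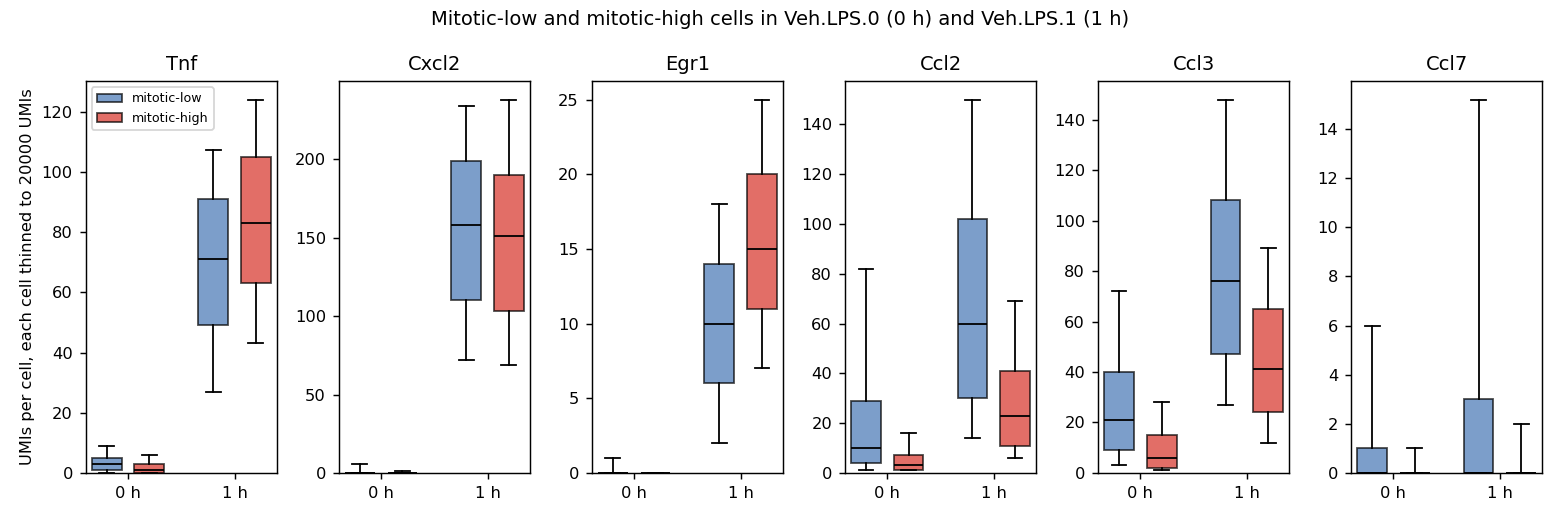
UMIs per cell after thinning each cell to 20000 UMIs, for mitotic-low (blue) and mitotic-high (red) cells of Veh.LPS.0 (0 h) and Veh.LPS.1 (1 h), with the box from the 25th to the 75th percentile, the line at the median and whiskers at the 10th and 90th percentiles of cells. At 1 h the medians are 71 and 83 for Tnf, and 60.0 and 23 for Ccl2, in mitotic-low and mitotic-high cells.

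A level at 1 h holds what was there before LPS, so each bin was set beside the bin cut in the same way from Veh.LPS.0. Without LPS, high cells had less of nearly all of these mRNAs. Ccl2 was at 1693 CPM in mitotic-low and 387.9 CPM in mitotic-high cells at 0 h, Ccl4 at 2432 and 727.0 CPM, Ccl7 at 171.1 and 12.6 CPM, and Cxcl2 at 253.9 and 43.5 CPM. Tnf was at 194.4 and 118.0 CPM and Egr1 at 13.1 and 6.27 CPM. The 0 h level of Cxcl2 was carried by few cells: at 20000 UMIs per cell, 24.2% of low and 12.6% of high cells held a Cxcl2 UMI, with up to 399 in 1 low cell, so its fold over 1 h and its change of ratio rest on that tail. The fold increase over 1 h was then larger in high than in low cells for all 14 named immediate-early genes and for 8 of the 12 named cytokines. Over 5479 well-detected genes this log2 difference had a median of 0.01 (interquartile range -0.06 to 0.10). More than 50% of those genes thus also had the larger ratio of 1 h to 0 h in high cells. Tnf was 17.7-fold higher at 1 h in low and 35.5-fold higher in high cells, Cxcl2 30.4-fold and 174.0-fold, Egr1 39.1-fold and 125.7-fold, and Ccl2 2.27-fold and 4.11-fold. Read as added CPM, which is a share of the UMIs of a bin and not molecules per cell, the picture split. High cells were deeper at both hours, and gains in molecules per cell were not compared. The added CPM was alike for Cxcl2 (7460 in low and 7518 in high cells) and greater in high cells for Tnf (3249 and 4066), Ier3 (3116 and 3606) and Egr1 (499.7 and 782.1). It was smaller in high cells for Ccl2 (2150 and 1206), Ccl4 (3830 and 2444) and Ccl3 (2424 and 1759). By this measure 9 of the 14 immediate-early genes and 2 of the 12 cytokines gained more in high cells. The answer for Ccl2, Ccl3 and Ccl4 thus depends on whether the response is read as a fold or as added CPM. Ccl9 was not one of these. In thinned cells its median was 13 UMIs in low and 12 in high cells at 0 h, and 18 and 13 at 1 h.

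Over the lists, 22 of 25 immediate-early genes with at least 10 UMIs in all 4 sums had the larger fold in mitotic-high cells, with a median difference of 0.46 on the log2 scale, and 9 passed 1.5-fold. Over the 5479 genes with such sums and a UMI in 50% or more of mitotic-high or mitotic-low cells, the median was 0.01. Of these, 0.913% passed 1.5-fold upward and 0.402% downward. List members did not need that share of cells, so these shares are not a like background for them. Of 16 such cytokines, 7 passed upward and 2 downward, with a median of 0.06 that was 0.32 when cells were thinned and 0.23 with 10% of cells at each end. The summed cytokine list went from 8168 to 28427 CPM in low cells and from 2931 to 20403 CPM in high cells. With DHA the same comparison of DHA.LPS.1 with DHA.LPS.0 gave a median of 0.42 over 23 immediate-early genes and 0.31 over 15 cytokines.

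**Figure D3:**
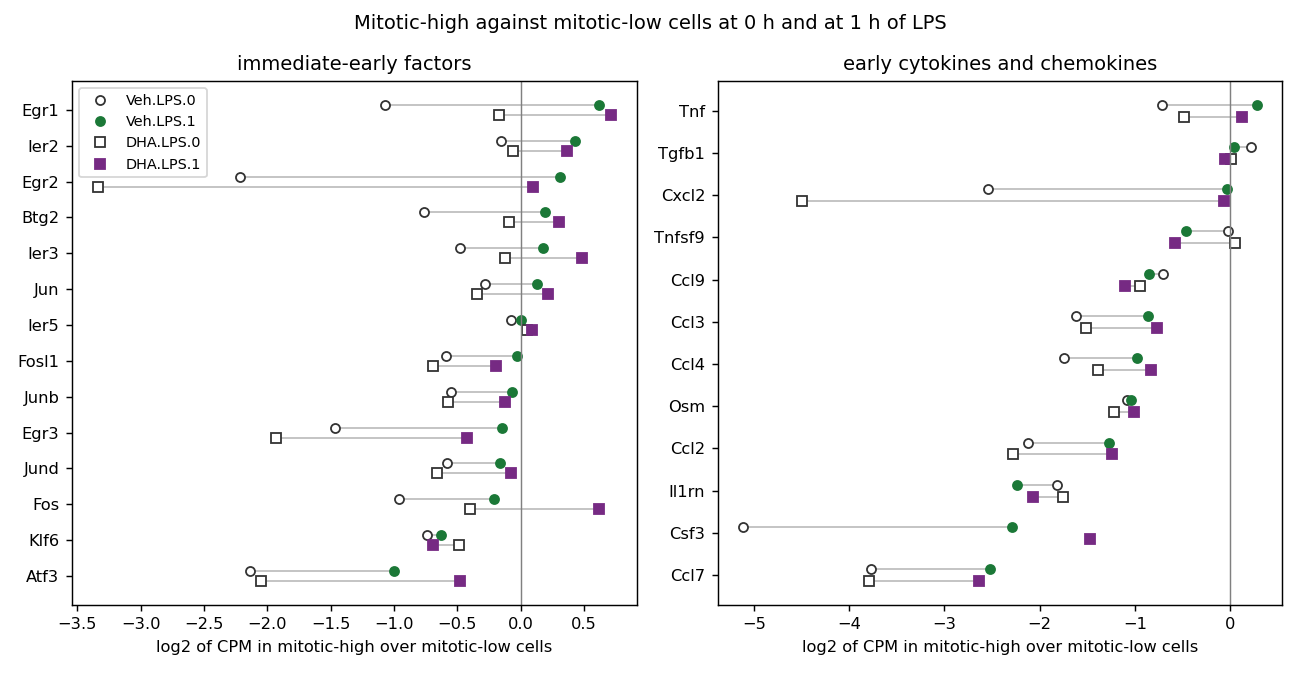
Log2 of the CPM in mitotic-high cells over that in mitotic-low cells for each named immediate-early gene (left) and cytokine (right), at 0 h (open) and 1 h (filled) of LPS, in vehicle (circles) and DHA (squares) libraries. From 0 to 1 h the ratio of Cxcl2 in vehicle goes from -2.55 to -0.03 and that of Ccl2 from -2.13 to -1.27; Csf3 has no point for DHA.LPS.0, where mitotic-high cells held none.

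The change of the ratio was tested over libraries, with vehicle and DHA as the 2 pairs at each hour, by edgeR's quasi-likelihood test with Benjamini-Hochberg adjustment over 11046 genes. The high-to-low ratio was larger at 1 h than at 0 h for 17 genes (0.154%) and smaller for 8 (0.0724%). Of the 25 genes of the cytokine list that were tested, 6 moved upward (Ccl7, Ccl2, Ccl3, Cxcl2, Ccl4 and Tnf) and 1 downward (Tnfsf9). Of 27 immediate-early genes, Egr2, Egr3 and Egr1 moved upward. Among the cytokines and immediate-early genes that passed, Cxcl2 had the largest change, 3.24 ± 0.38 (SE, log2, adjusted p = 0.0038), followed by Egr2 at 2.57 ± 0.34 (adjusted p = 0.011) and Egr1 at 1.36 ± 0.23 (adjusted p = 0.031). At 0 h Egr2 was near the floor. In thinned cells it had a UMI in 4.03% of low and 0.484% of high cells of Veh.LPS.0, and in 2.29% and 0.575% of DHA.LPS.0. Its change thus rests on few molecules at 0 h. Ccl7 and Ccl2 changed by 1.16 ± 0.10 and 0.91 ± 0.08 (adjusted p = 0.00041 for both), Ccl3 by 0.72 ± 0.07 (adjusted p = 0.0014), Tnf by 0.78 ± 0.11 (adjusted p = 0.012) and Ccl4 by 0.62 ± 0.09 (adjusted p = 0.019). A pair of negative regulators moved with them: Rgs1, which curbs G protein signaling, by 0.98 ± 0.10 (adjusted p = 0.0014), and the kinase phosphatase Dusp8 by 2.81 ± 0.46 (adjusted p = 0.031). Dusp8 was at 1.32 and 0.300 CPM in low and high cells at 0 h and at 10.5 and 15.3 CPM at 1 h. The test compares ratios and not added CPM. Leaving out Veh.LPS.1 left 9 genes with a larger and 3 with a smaller ratio, and without it or without Veh.LPS.0 the changes of Tnf, Egr1, Egr3 and Dusp8 no longer passed. When bins were cut within depth classes, those of Ccl7, Egr1, Egr3 and Dusp8 did not pass (10 larger and 3 smaller in all), while Cxcl2 passed under all 18 alternatives and Ccl2 and Rgs1 under 17. Ccl3 and Egr2 passed under 16, Ccl7 and Tnf under 14, Egr1 under 13, Ccl4 under 12, Egr3 under 10 and Dusp8 under 9. Over the 18 alternatives the change of Cxcl2 ran from 1.22 to 5.38 and that of Ccl7 from 0.41 to 1.72. Ccl4 did not pass without Veh.LPS.1 or DHA.LPS.1, under 10% mitochondrial UMIs, without the deepest cells, with 50% of cells in each bin, or with the score of other mitosis genes (adjusted p up to 0.36).

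The other direction held a small set. Tnfsf9, the ligand of 4-1BB, had equal levels at 0 h (133.1 CPM in low and 130.8 CPM in high cells) and was at 397.6 and 287.9 CPM at 1 h, a change of -0.57 ± 0.09 in the ratio (adjusted p = 0.019). Without Veh.LPS.0, Veh.LPS.1 or DHA.LPS.1 in turn, 3 genes had a smaller ratio, and Tnfsf9 and Tubb4b were not among them. Lcn2, an iron-sequestering protein, was at 22.7 CPM in low and 0.921 CPM in high cells at 1 h and changed by -1.97 ± 0.28 (adjusted p = 0.015). In thinned vehicle cells it had a UMI in 4.35% of low and 1.77% of high cells at 0 h. At 1 h the shares were 8.32% and 1.17%, with up to 47 UMIs in 1 low cell. Its change thus rests on few cells, and ran from -4.34 to -0.79 over 18 alternatives. Tuba1c, Tubb6 and Tubb4b, subunits of microtubules, were higher in high cells at both hours, but by less at 1 h. Tuba1c was at 61.9 CPM in low and 282.5 CPM in high cells at 0 h and at 203.6 and 471.6 CPM at 1 h, a change of -1.08 ± 0.12 (adjusted p = 0.0019). Tubb6 and Tubb4b changed by -0.74 ± 0.10 and -0.79 ± 0.11 (adjusted p = 0.012 and 0.015). Tubulin genes share long stretches of coding sequence, so their counts may be split between copies. The linker histone Hist1h1b moved upward by 0.81 ± 0.13 (adjusted p = 0.031), with 28.9 and 913.5 CPM in low and high cells of vehicle at 0 h and 6.69 and 392.4 CPM at 1 h, and did not pass without Veh.LPS.0, Veh.LPS.1 or DHA.LPS.1.

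**Figure D4:**
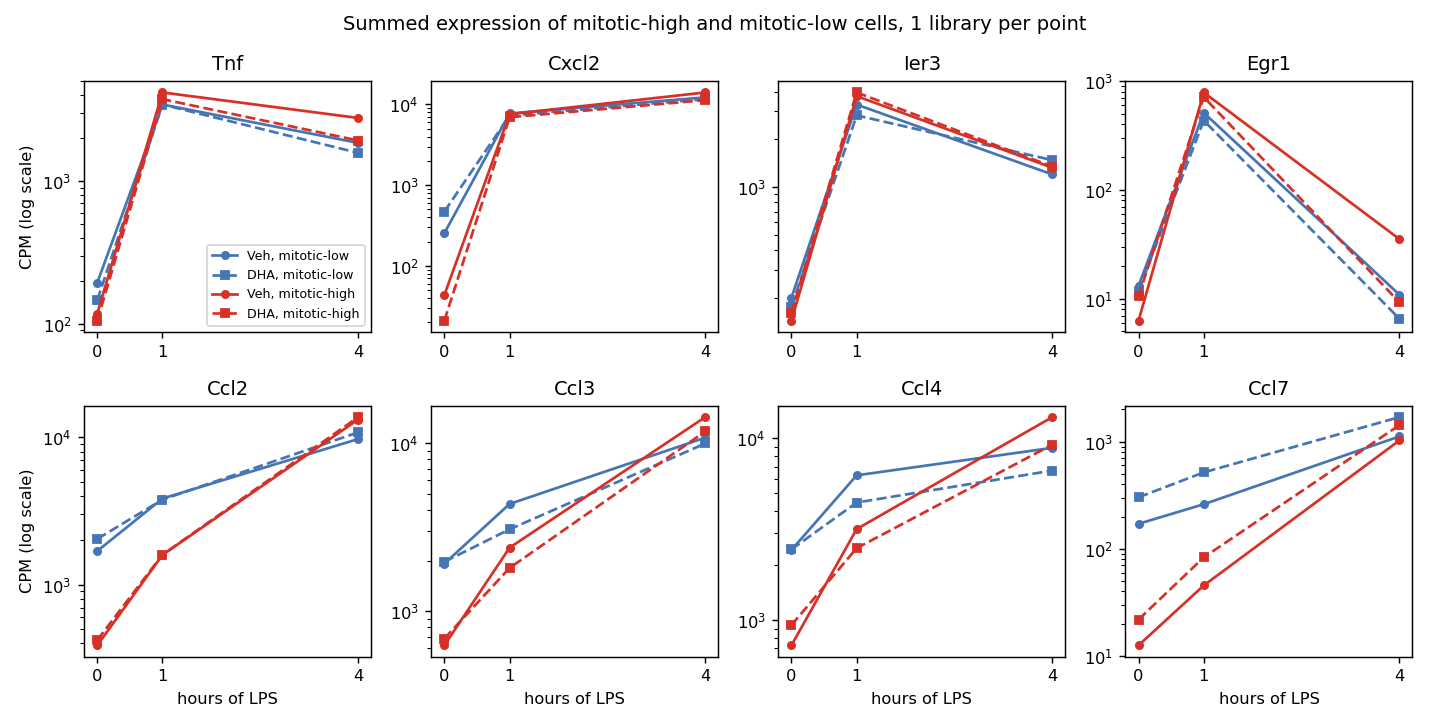
CPM on a log scale of 8 genes in mitotic-low (blue) and mitotic-high (red) cells at 0, 1 and 4 h of LPS, in vehicle (solid, circles) and DHA (dashed, squares) libraries, each point being the sum over the cells of 1 bin of 1 library. In mitotic-high cells with vehicle, Ccl2 starts at 387.9 CPM, is at 1594 CPM after 1 h and ends at 13210 CPM after 4 h, above mitotic-low cells at 9734 CPM.

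At 4 h, Ccl2, Ccl3 and Ccl4 were higher in mitotic-high cells. Ccl2 was at 9734 CPM in low and 13210 CPM in high cells of Veh.LPS.4, Ccl3 at 10771 and 14276 CPM, and Ccl4 at 8871 and 13095 CPM, and the DHA library had the same order for all 3. Il1rn and Ccl9 remained lower in high cells, at 1123 and 694.3 CPM and at 5822 and 3686 CPM. Cells with the same score were not being followed, however: mitotic-high cells had a median score of 748.5 CPM with vehicle and 1385 CPM with DHA, against 3032 CPM in Veh.LPS.1, and hour and score cannot be told apart there.

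The 6 libraries that the rule did not use tested whether the ratios of Veh.LPS.1 recur. In edgeR's test with library as a block over 11035 genes, 20.3% (2244 genes) rose in mitotic-high cells and 29.4% (3245 genes) fell. All 30 other mitosis genes and all 10 histone genes rose, as did 20 of 25 replication genes. Of the 25 cytokines tested 11 fell and none rose, and of 27 immediate-early genes 14 fell and 1 rose. Il1rn was lower in high cells in 6 of 6 libraries (log2 change -1.47, adjusted p = 0.00035), as were Ccl9 (-0.96, adjusted p = 3.1e-05), Ccl7 (-2.40, adjusted p = 0.0074) and Atf3 (-1.49, adjusted p = 0.0024). Ccl2 was lower in 4 of 6 (-1.20, adjusted p = 0.028), with both 4 h libraries the other way. Without them, an alternative chosen after seeing the data, the change was -1.88 (adjusted p = 0.00030; range over 19 alternatives 0.00030 to 0.087), and for Ccl3 and Ccl4 it was -1.57 and -1.62. With the 4 h libraries Ccl3 had -1.01 (adjusted p = 0.026; range 0.00022 to 0.082) and Ccl4 -0.98 (adjusted p = 0.048; range 0.00027 to 0.14), each lower in 4 of 6. Tnf did not pass (-0.24, adjusted p = 0.25), was lower in 3 of 6 libraries, and without the 4 h libraries fell by 0.48 (adjusted p = 0.012; range 0.00011 to 0.58). Egr1 had a change of 0.05 (adjusted p = 0.92), being higher in 3 libraries and lower in 3. The nearest repeat of Veh.LPS.1 was DHA.LPS.1, whose log2 ratios were -1.24 for Ccl2, -0.83 for Ccl4, -2.64 for Ccl7, -0.07 for Cxcl2, 0.12 for Tnf and 0.72 for Egr1, beside -1.27, -0.98, -2.52, -0.03, 0.28 and 0.62. That library kept 795 of its 4395 barcodes, and its low and high bins held 199 and 198 cells. Its high bin began at a lower score, 1369 CPM with a median of 2451 CPM, against 2364 and 3032 CPM in Veh.LPS.1.

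TLR4 and NF-κB genes had median log2 ratios within the interquartile range of all detected genes (-0.09 to 0.36). Some members were lower at 1 h, against 2.88% of all genes lower by 1.5-fold. Of 21 TLR4 receptor and adaptor genes none was higher by that margin and 2 were lower, with a median log2 ratio of 0.08: the adaptors Ticam2 (4.31 CPM in low and 2.06 CPM in high cells) and Ticam1 (17.5 and 10.9 CPM). Of 25 NF-κB subunits, inhibitors and targets 4 were lower by 1.5-fold, and the median was 0.00. Ptgs2, the inducible prostaglandin synthase, was at 63.3 and 12.5 CPM, and Acod1, which makes itaconate, at 72.8 and 34.7 CPM. Tnfaip3, the A20 inhibitor of NF-κB, was higher, at 139.6 and 197.8 CPM. Kinase phosphatases and mRNA decay factors had a median of -0.21, below that interquartile range, with 14 of 19 lower, 4 of them by 1.5-fold. That list also holds Rgs1 and Rasgef1b, which act in G protein signaling. Over the 6 other libraries, 10 of the 25 NF-κB genes fell and none rose. Of the 19 tested genes of the phosphatase and decay factor list, 8 fell and none rose. Of the 21 TLR4 genes 6 fell and 2 rose, where 29.4% of all genes fell and 20.3% rose. In the 1 h against 0 h test none of the 25 NF-κB genes and none of the 21 TLR4 genes passed in either direction, where 0.154% and 0.0724% of all genes passed; over all genes, 508 had an unadjusted p under 0.05.

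Of all detected genes of Veh.LPS.1, 2.88% were lower and 13.6% higher by more than 1.5-fold, and 29.4% of all tested genes fell over the 6 other libraries. Macrophage identity genes tended lower in high cells, with 7 of 20 lower by more than 1.5-fold and a median log2 ratio of -0.40. Over the 6 other libraries 18 of 21 fell. Fcer1g, an Fc receptor chain, was at 1155 CPM in low and 1131 CPM in high cells of Veh.LPS.1. Of 15 type I interferon genes 10 were lower in high cells, 4 of them by 1.5-fold, and 12 of 19 fell over the other libraries. Their median log2 ratio was -0.32, with median counting limits of -0.65 and 0.32. Oasl1, 1 of the 4, was at 20.0 and 7.33 CPM. In thinned cells it had a UMI in 11.8% of low and 7.81% of high cells, with up to 53 in 1 low cell. Of cholesterol enzymes and SREBP targets all 24 were higher in high cells of Veh.LPS.1, 7 of them by 1.5-fold, with a median of 0.45. Mvk, mevalonate kinase, was at 45.7 and 74.2 CPM, and 6 of the 24 rose over the other libraries, a share near the 20.3% of all genes, Mvk among them (0.49, adjusted p = 0.00023).

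Among genes in none of the lists, the 8 with the highest ratios in Veh.LPS.1 were Kif14, Hist1h2an, Aspm, Pbk, Sgo2a, Prr11, Sapcd2 and Kif4, several of which serve the spindle, the chromatids or cytokinesis, at log2 ratios of 5.80 to 6.54. The 8 with the lowest were Hilpda, Hmox1, Fkbp11, Ccr1, Ifitm6, Fam20c, Speg and Slpi. Hilpda, which protects lipid droplets from lipolysis, was at 100.4 CPM in low and 22.0 CPM in high cells. Hmox1, the heme-degrading enzyme induced by NRF2, was at 173.9 and 56.9 CPM and was lower in high cells of all 6 other libraries (-1.54, adjusted p = 1.5e-05). Slpi, a secreted protease inhibitor, was at 262.9 and 103.0 CPM (-0.94, adjusted p = 7.4e-05), and Ccr1, a receptor for Ccl3 and Ccl9, at 61.6 and 21.3 CPM (-1.25, adjusted p = 0.00021).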

How the data were processed

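Droplet RNA-seq (10x, v3 chemistry) was read from 7 libraries. The authors deposited UMI counts per gene and barcode, without normalization, and their processing notes name Cell Ranger 3.1.0 and mm10. Barcodes over 20000 UMIs, with at least 2000 genes and under 20% mitochondrial UMIs were kept. Cells were cut into 4 score bins within each library, UMIs summed per bin, and CPM ratios given exact binomial 95% intervals. Genes of Veh.LPS.1 were counted by size alone. Sums were tested with edgeR 4.0.16 (R 4.3.3; TMM, filterByExpr, quasi-likelihood), with library as a block and the 5 score genes left out; alternatives used DESeq2 1.42.0. Adjusted p-values under 0.05 passed. Doublets were not called; of the 154 deepest cells, 39 were high and 34 low. Scripts ran in Python 3.11.15 and were tested on simulated data. Members and gene lists were chosen with earlier results of these data known. Named were immediate-early genes and cytokines at 50 CPM or more, the 2 highest and 2 lowest ratios of every other list, the 8 highest and 8 lowest of no list, and the 5 lowest p in each direction of the 1 h against 0 h test, without unnamed gene models. Positions are RefSeq's (85 of 90 named genes matched).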

Additional observations from a re-analysis of the deposited data

Results flagged for a closer look

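For 17 named genes the high-to-low ratio differed between 1 h and 0 h of LPS by edgeR's quasi-likelihood test of that difference. It was larger at 1 h for Ccl7 (1.16 on the log2 scale), Ccl2 (0.91), Rgs1 (0.98), Ccl3 (0.72), Cxcl2 (3.24), Egr2 (2.57), Tnf (0.78), Ccl4 (0.62), Egr3 (1.30), Hist1h1b (0.81), Dusp8 (2.81) and Egr1 (1.36). It was smaller for Tuba1c (-1.08), Tubb6 (-0.74), Lcn2 (-1.97), Tubb4b (-0.79) and Tnfsf9 (-0.57). All 25 genes past the threshold kept their sign under each alternative in which they were tested. High cells were the deeper ones at both hours, and the part of depth was not tested beyond the alternatives given.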

How the results depend on the processing

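The number of Veh.LPS.1 genes higher in mitotic-high cells (743) was 482 with cells thinned, 449 with the upper and lower 50% of cells, 3179 with no limit on detection and 383 at 2-fold. The number lower (158) was 59 with the upper and lower 50%, 2580 with no limit, 285 with detection in 25% of cells and 36 at 2-fold. The cytokine median (-0.86) was -0.77 thinned, -0.78 under 10% mitochondrial UMIs, -1.12 with 10% of cells at each end, -0.54 with 50% and -0.93 with TMM. The immediate-early median difference in the response (0.46) was 0.23 with 50%. The cytokine median difference in the response (0.06) was 0.32 thinned and 0.23 with 10% of cells at each end, within its counting interval, as were the medians not given here.

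In the 1 h against 0 h test, 17 larger and 8 smaller ratios became 76 and 35 with no filter, 10 and 3 with bins cut within depth classes, 10 larger without the 5% deepest cells, 2 and 0 with 50% of cells (where 370 genes had an unadjusted p under 0.05), 6 and 2 with a score of 30 other mitosis genes, and 43 and 16 with the score limits of Veh.LPS.1 in every library, chosen after seeing the data. Leaving out a library gave 9 (without Veh.LPS.1) to 24 larger and 3 (without Veh.LPS.0, Veh.LPS.1 or DHA.LPS.1) to 12 smaller ratios; the lone library of that hour was then assumed to vary like the others. DESeq2's Wald test called 17 and 9. Acod1 changed sign between leaving out DHA.LPS.0 (1.68) and Veh.LPS.0 (-3.38), and Hist1h2bc over the 6 libraries was -0.22 with 10% of cells at each end; the cause was not tested. Counts over those 6 libraries stayed within 1.5 times throughout. High and low bins were compared within libraries; the labels give no replicate numbers for any further block. With 1 library per condition, intervals cover counting error, and the tested spread is that between conditions.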

Other observations

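The 8 called genes outside the named ones were Lilrb4a, Clec4e, Actg1, Plk3 and Hist1h1e, with larger ratios at 1 h, and Acsl1, Ptpre and Glrx, with smaller ones. They were singled out after their values were seen. Lilrb4a, an inhibitory receptor, was at 297.4 CPM in low and 156.2 CPM in high cells at 0 h and at 350.5 and 339.1 CPM at 1 h (0.81, adjusted p = 0.0044 by edgeR). Clec4e, a C-type lectin receptor of mycobacterial glycolipids, was at 218.2 and 138.1 CPM and then at 603.2 and 636.4 CPM (0.69, adjusted p = 0.035). Actg1, a cytoplasmic actin, was at 1033 and 943.6 CPM and then at 1880 and 2407 CPM (0.40, adjusted p = 0.039). Acsl1, which activates fatty acids to acyl-CoA, was equal at 0 h, with 36.4 and 36.7 CPM, and at 74.8 and 48.1 CPM at 1 h (-0.76, adjusted p = 0.021).

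Counts of replication histone genes were lower at 1 h than at 0 h in both bins, and how fully the assay captures these mRNAs was not tested. Their summed level went from 208.3 to 81.1 CPM in low cells and from 2967 to 1208 CPM in high cells of the vehicle libraries, and from 221.5 to 80.5 CPM and from 2321 to 1100 CPM with DHA. The summed level of the 30 mitosis genes went from 6253 to 5968 CPM in high vehicle cells. With 1 library per condition these are values, with no test.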
